A study of Rattus norvegicus with 11 samples.

Results

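The genes described here are 10 genes of cellular iron uptake, storage and export, chosen by name from the 32883 gene rows of a rat expression table. Tfrc, Slc11a2, Steap3 and Steap4 serve uptake and reduction of iron, Fth1 and Ftl1 its storage, Slc40a1 and Cp its export, and Aco1 and Ireb2 encode the proteins that sense it. All 10 names have a row, and 8 of them passed the expression filter described below.

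The libraries are messenger RNA of rat bone marrow mesenchymal stem cells (BMSCs), the adherent stromal cells of marrow that can form bone, fat and cartilage cells. They comprise 4 libraries labelled IRDC, 3 labelled imDC and 4 control libraries, all from day 3. According to the series text, the medium on the BMSCs had been conditioned by dendritic cells that were irradiated (8 Gy) or not (0 Gy). Titles carry no dose, so IRDC is read as the irradiated and imDC as the unirradiated arm from the names alone. No strain, sex, age, number of animals or number of medium batches is given in the labels, nor what medium the controls received, so a medium batch cannot be told apart from the treatment. The libraries are titled biological replicates, but whether each had its own animal or culture is not stated. The p-values thus reflect library-to-library spread, possibly technical only.

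Cells take up iron bound to transferrin through the transferrin receptor, free it in the acidic endosome, reduce it there and pass it to the cytosol. Iron that is not used is kept inside ferritin, a hollow shell of heavy and light chains, or leaves through ferroportin, the only known iron exporter of mammalian cells. When iron is scarce, iron regulatory proteins bind hairpins called iron-responsive elements in the mRNA. They block translation of ferritin and ferroportin mRNA and stabilise the mRNA of the transferrin receptor. Levels of mRNA therefore describe only part of this control. Marrow stroma shares its niche with red cell precursors, the main iron consumers of the body, and with macrophages, which recycle iron.

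The unit is FPKM, a read number scaled to transcript length and library depth. Levels can thus be set side by side between genes, within the limits given below for Fth1 and Ftl1. Whole reads could be recovered from the steps of the FPKM values, and they put the depth of a library between 17780428 and 25521204 reads. Changes are differences of log2(FPKM + 1), with their standard error (SE), from limma fitted to the 12521 genes that reached 1 FPKM in 3 or more libraries. Adjusted p-values are Benjamini-Hochberg values over all 12521 genes, and a gene is said to have risen or fallen where its adjusted p was under 0.05. This scale understates the change of genes with low FPKM. The groups differed widely. In IRDC against control, 76.0% of all genes passed, 24.5% higher and 51.5% lower, and the groups did not overlap in 70.2%. Calls on single genes below are to be read against that background.

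RefSeq promoter sequences (build GRCr8) were at hand for 8 of the 10 genes, all but Fth1 and Ftl1. The windows of Tfrc, Slc11a2 (the first of its start sites) and Steap4, 250 bases before the transcription start, are shown because these genes rose in IRDC against control and their windows hold a match to a motif known from responses to low oxygen or inflammation. In Tfrc and Slc11a2 capitals mark the core of the hypoxia response element, ACGTG or GCGTG on either strand. In Steap4 capitals mark the match to the NF-kB consensus, searched by name on both strands.
Tfrc, chr11:81690319-81690568, minus strand: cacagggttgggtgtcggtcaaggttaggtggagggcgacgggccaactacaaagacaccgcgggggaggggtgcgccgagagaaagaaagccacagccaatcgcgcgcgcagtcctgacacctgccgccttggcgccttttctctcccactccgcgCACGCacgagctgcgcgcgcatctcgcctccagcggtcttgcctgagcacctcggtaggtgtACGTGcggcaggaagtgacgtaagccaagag
Slc11a2, chr7:133417789-133418038, minus strand: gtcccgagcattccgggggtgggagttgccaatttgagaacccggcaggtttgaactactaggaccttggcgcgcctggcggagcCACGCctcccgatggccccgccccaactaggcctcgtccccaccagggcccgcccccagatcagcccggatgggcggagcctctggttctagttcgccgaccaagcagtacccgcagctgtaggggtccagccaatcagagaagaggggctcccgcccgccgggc
Steap4, chr4:27054770-27055019, minus strand: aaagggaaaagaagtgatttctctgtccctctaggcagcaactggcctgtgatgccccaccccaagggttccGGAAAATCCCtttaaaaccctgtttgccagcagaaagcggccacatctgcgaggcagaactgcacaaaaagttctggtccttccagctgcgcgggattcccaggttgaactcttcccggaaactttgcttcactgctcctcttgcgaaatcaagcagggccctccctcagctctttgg

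The ACGTG match of Tfrc lies at -31 to -27 from the start, and 16.6% of 33469 rat promoter windows of this length hold ACGTG on either strand. With GCGTG included, the share of windows was 36.7%. Of the 9 windows of the 8 genes, 3 had a match, namely those of Tfrc, Aco1 and the first start site of Slc11a2. An NF-kB match was found in Steap4 alone, at -178 to -169, against 6.33% of all windows. The antioxidant response core TGACNNNGC, searched on both strands, is in 10.1% of windows and in none of the 8 genes. These matches describe letters in a window and were not tested as binding sites.

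The stromal label and markers of other cells were checked first. The 11 stromal markers in the table summed to 5050 to 5130 FPKM in IRDC, 4908 to 4940 in imDC and 4010 to 4155 in control. Without Col1a1, the most abundant, they summed to 2602 to 2632 FPKM in IRDC, 2529 to 2547 in imDC and 2294 to 2363 in control. Of the 10 tested, 7 rose in IRDC against control, and Pdgfrb, Cxcl12 and Vcam1 fell. Lepr, the remaining stromal marker, did not pass the filter. Its mean was 0.064 FPKM in IRDC, 0.14 in imDC and 0.88 in control. The 18 macrophage and dendritic cell markers summed to 668 to 675 FPKM in IRDC, 1019 to 1045 in imDC and 1021 to 1048 in control. Most of that net difference lies in Lyz2, a lysozyme of macrophages. Without it the sums were 484 to 492 FPKM in IRDC, 534 to 539 in imDC and 503 to 528 in control. These sums without the most abundant gene were added after the data were seen. Of the 17 tested, 7 rose and 10 fell in IRDC against control, so rises and falls partly cancel in these sums. Cd163, Cd14, Mrc1, Itgam, C1qa, C1qb and C1qc rose. Too few control libraries reached 1 FPKM for Cd163 and C1qc, so both passed the filter only through the groups where they are high. Cd163, a haemoglobin scavenger receptor of macrophages, had 26.6 to 28.5 FPKM in IRDC, 19.98 to 20.6 in imDC and 0.752 to 1.26 in control. C1qa, a complement subunit made by macrophages, had 17.3 to 18.7 FPKM in IRDC, 17.8 to 19.1 in imDC and 3.43 to 4.50 in control. Those that fell were Ptprc, Cd68, Lyz2, Csf1r, Adgre1, Cd74, Tyrobp, Fcer1g, Laptm5 and Spi1. Among them, Lyz2 had 182 to 190 FPKM in IRDC, 485 to 508 in imDC and 515 to 528 in control. Ptprc, the pan-leukocyte marker, had 5.07 to 5.37 FPKM in IRDC, 7.54 to 9.40 in imDC and 16.9 to 18.4 in control. Macrophages use Slc40a1, Steap3, Slc11a2 and Hmox1, and their part in the values of these genes below was not tested. In a bulk sample, fewer cells of a type and less RNA per cell cannot be told apart. The 11 erythroid markers in the table summed to 0.454 to 1.12 FPKM in IRDC, 1.15 to 1.98 in imDC and 1.06 to 1.78 in control, with Gata1, Slc4a1, Hbb and Tspo2 listed at 0 in every library.

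Iron uptake genes split in IRDC. Tfrc and Slc11a2, the receptor and the endosomal transporter, were higher in IRDC than in either other group. Steap3, the endosomal reductase that works between them, was lowest there. Steap4 was higher in IRDC and imDC than in control, at a low level.

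Tfrc encodes the transferrin receptor, which brings transferrin-bound iron into the cell. It had 66.3, 68.6, 63.4 and 66.1 FPKM in the IRDC libraries, against 39.0, 38.9 and 38.4 FPKM in imDC and 35.5, 38.0, 36.0 and 37.7 FPKM in control. The IRDC libraries all lay above every other library, while imDC lay just above control with a gap smaller than the spread within control. Tfrc rose by 0.83 (SE 0.029) in IRDC against control (limma, adjusted p = 4.7e-11) and by 0.75 (SE 0.032) against imDC (limma, adjusted p = 9.3e-10). The change in imDC against control was 0.073 (SE 0.032), which did not pass (limma, adjusted p = 0.0633). It passed after TMM-like scaling (change 0.17, limma adjusted p = 0.00167) and after quantile normalization (change 0.14, limma adjusted p = 0.00351). It also passed in 4 other settings, among them without control replicate 2 (limma adjusted p = 0.0357).

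Slc11a2, the divalent metal transporter that moves ferrous iron out of the endosome, followed a like order. The IRDC libraries had 26.9, 26.3, 28.1 and 27.8 FPKM, the imDC libraries 14.2, 15.0 and 14.8 FPKM, and the control libraries 14.6, 13.8, 14.3 and 13.5 FPKM. IRDC stood apart from all others, and imDC overlapped control. It rose by 0.91 (SE 0.036) in IRDC against control (limma, adjusted p = 1.3e-10) and by 0.85 (SE 0.039) against imDC (limma, adjusted p = 1.9e-09). In imDC against control it changed by 0.058 (SE 0.039; limma, adjusted p = 0.209), and passed under only these alternatives, TMM-like scaling (0.15) and quantile normalization (0.13). Transcripts of this gene with and without an iron-responsive element cannot be separated in a value per gene.

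Steap3 encodes the ferric reductase of endosomes, known from mice as the main one of red cell precursors. It had 5.04, 4.39, 5.38 and 4.58 FPKM in IRDC, 14.1, 14.9 and 14.5 FPKM in imDC, and 19.97, 19.2, 21.0 and 21.5 FPKM in control. No group overlapped another. Steap3 fell by 1.88 (SE 0.056) in IRDC against control (limma, adjusted p = 8.8e-12), by 1.41 (SE 0.061) in IRDC against imDC (limma, adjusted p = 1.2e-09) and by 0.47 (SE 0.061) in imDC against control (limma, adjusted p = 2.8e-05). The mean in control was 4.21 times that in IRDC.

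Steap4, a metalloreductase of the plasma membrane and endosomes that inflammatory cytokines are known to induce, was close to absent from control. It had 1.56, 1.32, 1.78 and 1.33 FPKM in IRDC, 1.97, 2.37 and 2.66 FPKM in imDC, and 0.0972, 0.0916, 0.150 and 0.0683 FPKM in control. These values rest on 94 to 131 reads in IRDC, 119 to 177 in imDC and 5 to 13 in control. The order differed from that of Tfrc, with imDC above IRDC. Steap4 rose by 1.59 (SE 0.10) in imDC (limma, adjusted p = 3.4e-08) and by 1.18 (SE 0.094) in IRDC (limma, adjusted p = 1.5e-07), each against control. It passed the filter only through those groups, so a difference from control was fixed by the filter. In IRDC against imDC it fell by 0.42 (SE 0.10; limma, adjusted p = 0.00369), a call lost after quantile normalization (adjusted p = 0.0626).

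**Figure D1:**
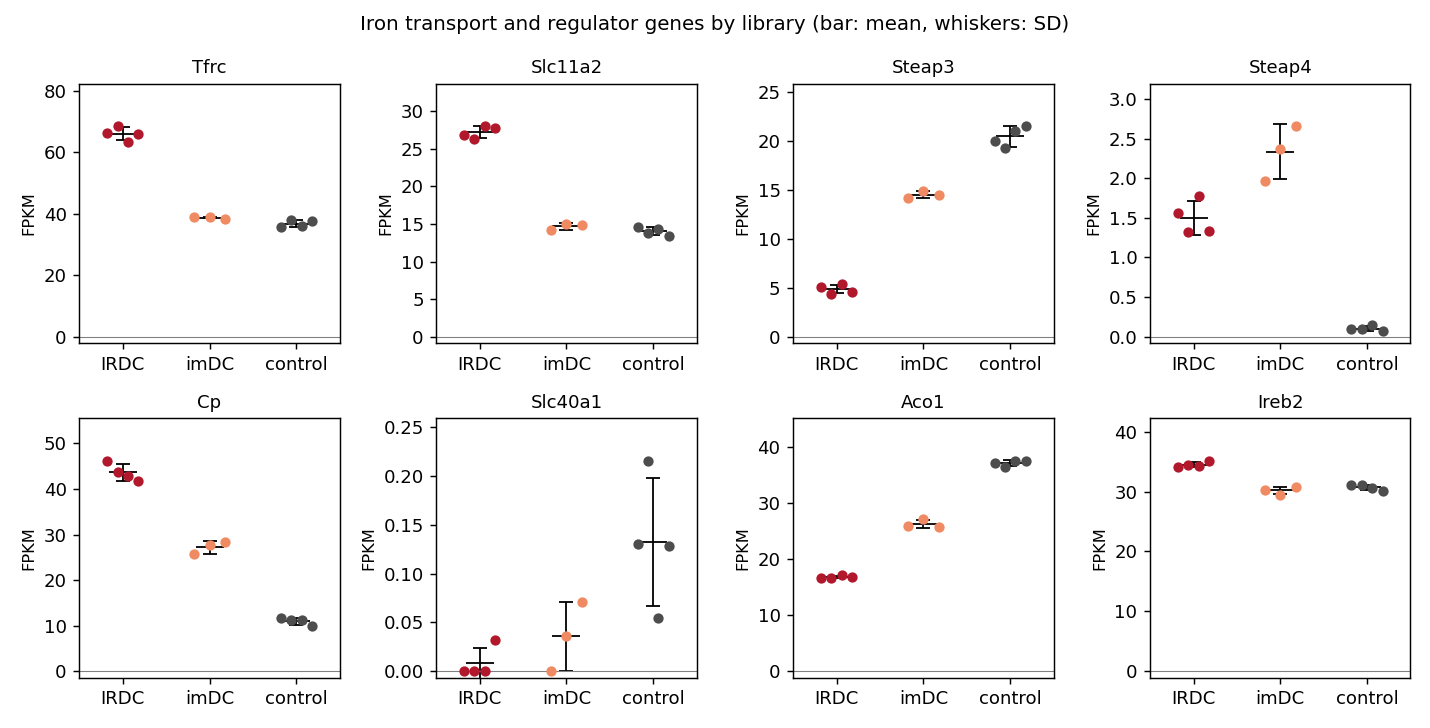
FPKM of 8 iron genes in each of 11 libraries, with 4 IRDC, 3 imDC and 4 control points; the horizontal bar is the mean and the whiskers are 1 SD. Tfrc and Slc11a2 stand apart in IRDC, Steap3 and Aco1 are lowest and Cp is highest in IRDC with imDC between, and Slc40a1 reaches at most 0.216 FPKM in any library.

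The storage genes could not be read from the rows that carry their names. Fth1, the heavy chain with the ferroxidase activity of ferritin, is listed at 0 in all 11 libraries. An exact 0 here cannot be taken as absence of the mRNA, since Fau, a ribosomal protein gene used by every cell, is also listed at 0 in 10 of 11 libraries. RefSeq (build GRCr8) lists 6 other loci named after Fth1, 5 of them pseudogenes, and 22 after Ftl1, 15 of them pseudogenes. How reads that match several copies were counted is not given in the sources used here, and its part in these values was not tested.

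Ftl1, the light chain, which helps iron mineralise inside the shell, had few reads on its own row. It had 1.66, 2.04, 2.79 and 1.39 FPKM in IRDC, 2.54, 1.61 and 2.08 FPKM in imDC, and 4.36, 4.06, 3.24 and 3.63 FPKM in control, on 27 to 84 reads per library. IRDC and imDC overlapped each other and lay below control. Ftl1 fell by 0.71 (SE 0.14) in IRDC (limma, adjusted p = 5.9e-04) and by 0.65 (SE 0.15) in imDC (limma, adjusted p = 0.00269), each against control. Between IRDC and imDC the change was -0.062 (SE 0.15; limma, adjusted p = 0.752).

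Another row, LOC100360087, a protein-coding locus for which RefSeq gives the synonym Ftl1, carried far more reads. It is outside the 10 genes and was chosen after its values were seen. It had 965, 957, 1003 and 988 FPKM in IRDC, 1056, 1034 and 1007 FPKM in imDC, and 1472, 1394, 1483 and 1432 FPKM in control. LOC100360087 fell by 0.56 (SE 0.023) in IRDC (limma, adjusted p = 1.7e-10) and by 0.48 (SE 0.025) in imDC (limma, adjusted p = 4.0e-09), each against control. Between IRDC and imDC it fell by 0.078 (SE 0.025; limma, adjusted p = 0.0170), and this was reversed after TMM-like scaling (0.031). The call was also lost with no filter (adjusted p = 0.0521), with no trend (adjusted p = 0.0707) and without imDC replicate 1 (adjusted p = 0.0808). Both rows were thus lower in IRDC and imDC than in control. The other light chain copy in the table, LOC100359668, had 1.94 to 2.58 FPKM in IRDC, 0.611 to 1.67 in imDC and 2.25 to 5.25 in control. LOC100359668 fell by 0.53 (SE 0.19) in IRDC (limma, adjusted p = 0.0234) and by 1.11 (SE 0.21) in imDC (limma, adjusted p = 4.9e-04), each against control, and rose by 0.58 (SE 0.21) in IRDC against imDC (limma, adjusted p = 0.0295).

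**Figure D2:**
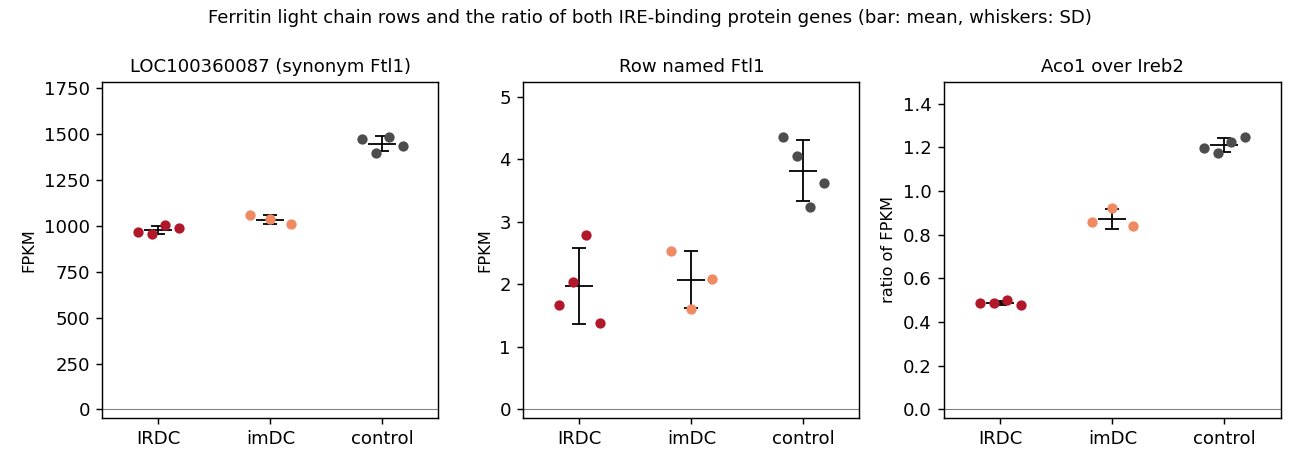
FPKM of the row LOC100360087 and of the row named Ftl1, and the ratio of Aco1 to Ireb2 FPKM, in 4 IRDC, 3 imDC and 4 control libraries; the bar is the mean and the whiskers are 1 SD. Both light chain rows lie lower in IRDC and imDC than in control, and the ratio steps down to 0.488 in IRDC.

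Of the export genes, Cp was highest in IRDC, and Slc40a1 had too few reads for the expression filter. Slc40a1 encodes ferroportin, and it was at the limit of detection. It had 0, 0, 0 and 1 reads in the IRDC libraries, 0, 1 and 2 reads in imDC, and 4, 7, 2 and 4 reads in control. A library at 0 still allows up to 3 reads, and 3 of the 4 control libraries lay above that. It was tested only in the alternative without a filter, where it changed by -0.17 in IRDC against control (limma, adjusted p = 0.00445), by -0.13 in imDC against control (limma, adjusted p = 0.0356) and by -0.039 in IRDC against imDC (limma, adjusted p = 0.561).

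Cp, ceruloplasmin, is the copper ferroxidase that oxidises iron as it leaves ferroportin, secreted by liver as an acute-phase protein and anchored to the membrane in other cells. It had 46.2, 43.8, 42.8 and 41.7 FPKM in IRDC, 25.7, 27.7 and 28.3 FPKM in imDC, and 11.7, 11.2, 11.3 and 9.90 FPKM in control. The 3 groups did not overlap. Cp rose by 1.90 (SE 0.051) in IRDC against control (limma, adjusted p = 2.9e-12), by 1.23 (SE 0.055) in imDC against control (limma, adjusted p = 1.1e-09) and by 0.66 (SE 0.055) in IRDC against imDC (limma, adjusted p = 5.7e-07). Its mean in IRDC was 3.96 times that in control. Hephaestin, another membrane ferroxidase, moved the opposite way. Heph stood at 1.46 ± 0.353 FPKM in IRDC, 3.85 ± 0.183 in imDC and 9.94 ± 0.525 in control (SD, n = 4, 3 and 4), and fell by 2.16 (SE 0.092) in IRDC against control (limma, adjusted p = 2.7e-10).

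The sensor genes differed in level and change. Aco1 encodes iron regulatory protein 1, which is the cytosolic aconitase while it holds an iron-sulfur cluster and binds iron-responsive elements once the cluster is lost. It had 16.6, 16.7, 17.1 and 16.9 FPKM in IRDC, 25.9, 27.2 and 25.8 FPKM in imDC, and 37.2, 36.4, 37.5 and 37.6 FPKM in control. The groups were far apart compared with a coefficient of variation of 1.23% in IRDC, 2.94% in imDC and 1.43% in control. Aco1 fell by 1.10 (SE 0.026) in IRDC against control (limma, adjusted p = 9.6e-13), by 0.48 (SE 0.029) in imDC against control (limma, adjusted p = 1.7e-08) and by 0.61 (SE 0.029) in IRDC against imDC (limma, adjusted p = 2.3e-09).

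Ireb2 encodes iron regulatory protein 2, which is broken down when iron is plentiful. It had 34.2, 34.4, 34.3 and 35.2 FPKM in IRDC, 30.2, 29.5 and 30.8 FPKM in imDC, and 31.1, 31.1, 30.6 and 30.2 FPKM in control. IRDC lay above both other groups, which overlapped. Ireb2 rose by 0.16 (SE 0.024) in IRDC against control (limma, adjusted p = 4.8e-05) and by 0.19 (SE 0.026) against imDC (limma, adjusted p = 5.2e-05). In imDC against control the change was -0.025 (SE 0.026; limma, adjusted p = 0.421), and its sign turned after TMM-like scaling (0.071, adjusted p = 0.0403) and quantile normalization (0.046).

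The ratio of Aco1 to Ireb2 FPKM is not changed by a scaling factor applied to a whole library. It was 0.487, 0.487, 0.499 and 0.479 in the IRDC libraries, 0.856, 0.922 and 0.838 in imDC, and 1.20, 1.17, 1.22 and 1.25 in control. Thus the FPKM of Ireb2 was the higher in IRDC and imDC, and that of Aco1 in control, with no overlap of the ratio between groups. No test was run on this ratio.

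**Figure D3:**
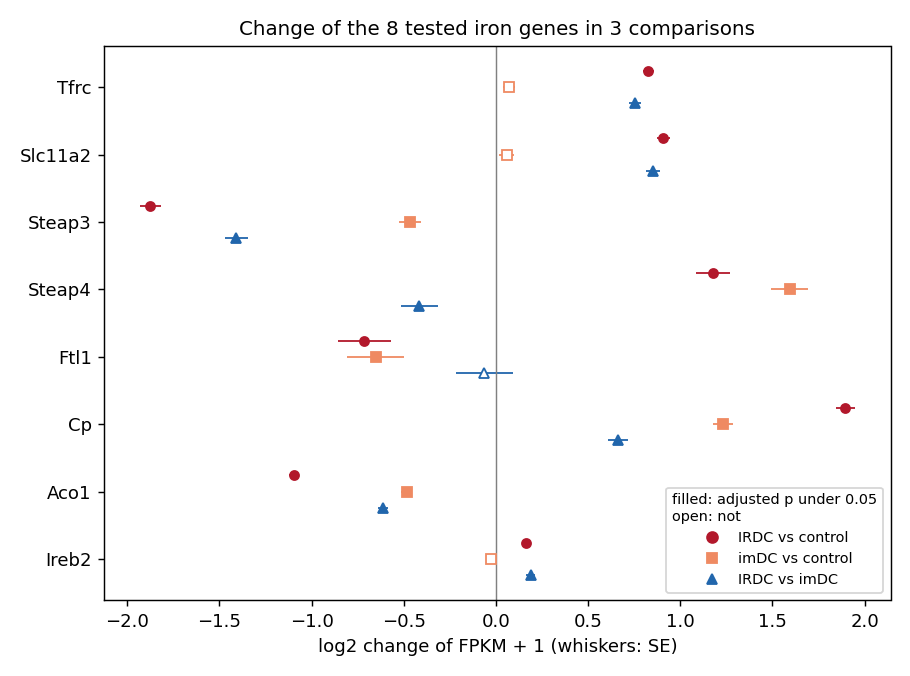
Change of log2(FPKM + 1) of the 8 iron genes tested, in IRDC against control (circles), imDC against control (squares) and IRDC against imDC (triangles), with SE whiskers; filled symbols passed and open ones did not. Tfrc, Slc11a2 and Ireb2 have open squares near 0 and filled circles to the right.

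The order of levels changed with the groups. In IRDC the highest of the 10 was Tfrc at 66.1 ± 2.14 FPKM, then Cp at 43.6 ± 1.92, Ireb2 at 34.5 ± 0.457, Slc11a2 at 27.3 ± 0.844 and Aco1 at 16.8 ± 0.207 (SD, n = 4). In imDC Tfrc led at 38.8 ± 0.292 FPKM, followed by Ireb2 at 30.2 ± 0.658 (SD, n = 3). Below these, Cp at 27.2 ± 1.40 and Aco1 at 26.3 ± 0.772 overlapped, as did Slc11a2 and Steap3 (SD, n = 3). In control Aco1 at 37.2 ± 0.531 FPKM and Tfrc at 36.8 ± 1.21 led and overlapped each other, followed by Ireb2 at 30.7 ± 0.441, Steap3 at 20.4 ± 1.03, Slc11a2 at 14.1 ± 0.4999 and Cp at 11.0 ± 0.774 (SD, n = 4). Fth1 and Ftl1 are left out of this order. Placed among the 12521 tested genes, Cp lay above 84.9% of them in IRDC, 75.4% in imDC and 50.1% in control. Steap3 lay above 33.0% in IRDC, 59.2% in imDC and 67.1% in control.

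In all, 8 of the 10 genes were tested, and in IRDC against control 5 rose and 3 fell, where 76.0% of all genes were called. Their groups did not overlap in any of the 8, against 70.2% of all genes, and Steap4 was among them only through the groups where it is high. In imDC against control 2 rose, 3 fell and 3 did not pass, where 63.2% of all genes were called, 23.1% higher and 40.1% lower. There 6 of the 8 had groups without overlap, against 62.8% of all genes. Steap4 was again in both counts, of rises and of groups without overlap, only through the groups where it is high. In IRDC against imDC 4 rose, 3 fell and Ftl1 did not pass, and 7 of the 8 had groups without overlap, against 59.0% of all genes; there 58.8% of all genes were called, 20.2% higher and 38.6% lower. Counts over 8 genes against such a background are no result about the set. Comparisons with control share the control libraries, so their values are set side by side and are not independent. The median change of the 8 was 0.50 in IRDC against control, 0.017 in imDC against control and 0.063 in IRDC against imDC. The median of all genes was -0.18, -0.089 and -0.091 in the same comparisons.

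That median moved by 0.18 after TMM-like scaling and by 0.15 after quantile normalization in IRDC against control. Of the genes called there, 32.3% were higher as deposited, 50.4% after TMM-like scaling and 46.3% after quantile normalization. Relative to the median of all genes, Cp changed by 2.07, Steap4 by 1.35, Slc11a2 by 1.09, Tfrc by 1.00 and Ireb2 by 0.34 in IRDC against control. On the same scale Steap3 changed by -1.70, Aco1 by -0.92 and Ftl1 by -0.54. The order of sizes depends on the pseudocount, since Steap4 changed by 2.99 with a pseudocount of 0.1 FPKM and by 3.82 with voom, without taking the median off. All 8 kept their direction in IRDC against control under each alternative in which they were tested. For Steap4 this adds nothing, since it passed the filter only through the groups where it is high. Steap4 and Ftl1 were not tested with a filter of 5 FPKM.

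Other iron genes were taken from 6 lists with 69 names, of which 60 were tested. In IRDC against control 19 rose and 25 fell, where 24.5% of all genes rose and 51.5% fell. In imDC against control 21 rose and 22 fell, against 23.1% and 40.1% of all genes. In IRDC against imDC 17 rose and 26 fell, against 20.2% and 38.6% of all genes. Their median change in IRDC against control was -0.089, and that of all genes was -0.18. The wider set moved both ways, as did all genes, so these counts are no result about it. Counts per list below have the same shares as background and are no result about a list. The values below belong to the named genes only. Means are FPKM ± SD with n = 4 for IRDC, 3 for imDC and 4 for control.

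Among 12 further uptake genes tested, 7 rose and 3 fell in IRDC against control. Slc39a14, a zinc and iron transporter of the cell surface that takes up iron not bound to transferrin, stood at 295 ± 2.98 FPKM in IRDC, 151 ± 2.83 in imDC and 30.8 ± 1.02 in control. It rose by 3.22 (SE 0.023) in IRDC (limma, adjusted p = 1.4e-17) and by 2.25 (SE 0.025) in imDC (limma, adjusted p = 2.5e-15), each against control. Lcn2, which binds iron-loaded siderophores, stood at 1194 ± 11.1 FPKM in IRDC, 413 ± 2.72 in imDC and 1.77 ± 0.457 in control. It rose by 8.77 (SE 0.089) in IRDC against control (limma, adjusted p = 2.7e-16). Cybrd1, a ferric reductase of the cell surface, fell by 1.29 (SE 0.068) in IRDC against control (limma, adjusted p = 2.3e-09). Mcoln1, a lysosomal channel through which iron can leave, fell by 1.07 (SE 0.047) in IRDC (limma, adjusted p = 3.9e-10) and by 0.96 (SE 0.051) in imDC (limma, adjusted p = 5.9e-09), each against control.

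Of 3 storage genes tested, 2 fell in IRDC against control and none rose. Scara5, a receptor that takes up ferritin in mice, stood at 38.6 ± 0.922 FPKM in IRDC, 169 ± 1.45 in imDC and 215 ± 4.52 in control. It fell by 2.45 (SE 0.022) in IRDC against control (limma, adjusted p = 7.8e-17), by 0.35 (SE 0.023) in imDC against control (limma, adjusted p = 6.0e-08) and by 2.10 (SE 0.023) in IRDC against imDC (limma, adjusted p = 5.6e-15). Ncoa4, the receptor that carries ferritin to the lysosome, fell by 0.24 (SE 0.023) in IRDC against control (limma, adjusted p = 9.2e-07), a call lost after TMM-like scaling (adjusted p = 0.288).

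Of 4 sensing genes, 2 rose and 1 fell in IRDC against control. Fbxl5, the iron-binding subunit of the ubiquitin ligase that breaks down iron regulatory proteins, stood at 180 ± 1.88 FPKM in IRDC, 101 ± 4.48 in imDC and 36.2 ± 0.737 in control. It rose by 2.29 (SE 0.026) in IRDC against control (limma, adjusted p = 9.4e-16) and by 0.83 (SE 0.029) in IRDC against imDC (limma, adjusted p = 1.4e-10). Skp1, a common subunit of that ligase, fell by 0.49 (SE 0.025) in IRDC against control (limma, adjusted p = 1.9e-09). Epas1, which encodes a hypoxia-inducible factor whose mRNA carries an iron-responsive element, rose by 1.40 (SE 0.023) in IRDC (limma, adjusted p = 2.6e-14) and by 0.40 (SE 0.025) in imDC (limma, adjusted p = 3.5e-08), each against control.

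Of 5 genes of export and hepcidin control tested, 2 rose and 3 fell in IRDC against control. Bmp6, the ligand that drives hepcidin in liver, stood at 20.9 ± 1.20 FPKM in IRDC, 5.38 ± 0.636 in imDC and 1.14 ± 0.199 in control, and rose by 3.36 (SE 0.080) in IRDC against control (limma, adjusted p = 9.0e-13). Bmp2, another such ligand, stood at 2.68 ± 0.227 FPKM in IRDC, 1.39 ± 0.230 in imDC and 4.13 ± 0.1704 in control, and was thus lowest in imDC. Furin, a protease that cleaves the hepcidin precursor, rose by 0.39 (SE 0.028) in IRDC against control (limma, adjusted p = 5.5e-08). Hamp, the hepcidin gene, did not pass the filter.

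Of 19 haem genes tested, 4 rose and 9 fell in IRDC against control. Hpx, hemopexin, the haem-binding plasma protein, stood at 96.9 ± 2.64 FPKM in IRDC, 25.2 ± 1.33 in imDC and 1.85 ± 0.329 in control. It rose by 5.11 (SE 0.067) in IRDC (limma, adjusted p = 3.1e-15) and by 3.21 (SE 0.073) in imDC (limma, adjusted p = 1.8e-12), each against control. Hp, haptoglobin, which binds free haemoglobin, rose by 3.00 (SE 0.059) in IRDC (limma, adjusted p = 1.4e-13) and by 2.63 (SE 0.064) in imDC (limma, adjusted p = 3.3e-12), each against control. Hmox1, the oxygenase that frees iron from haem, stood at 480 ± 7.02 FPKM in IRDC, 310 ± 3.14 in imDC and 222 ± 5.93 in control, and rose by 1.11 (SE 0.020) in IRDC against control (limma, adjusted p = 4.8e-14). Flvcr2, a membrane transporter once described as a haem importer, fell by 0.92 (SE 0.092) in IRDC against control (limma, adjusted p = 1.4e-06). It stood at 0.934 ± 0.202 FPKM in IRDC, 1.54 ± 0.153 in imDC and 2.64 ± 0.246 in control. It passed the filter only through the groups where it is higher.

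Of 17 genes of mitochondrial iron and iron-sulfur clusters tested, 4 rose and 7 fell in IRDC against control. Slc25a37, mitoferrin, which carries iron into mitochondria, stood at 63.2 ± 0.834 FPKM in IRDC, 25.9 ± 0.743 in imDC and 9.17 ± 1.02 in control. It rose by 2.66 (SE 0.058) in IRDC against control (limma, adjusted p = 3.4e-13) and by 1.26 (SE 0.063) in IRDC against imDC (limma, adjusted p = 4.5e-09). Iscu, the scaffold on which clusters are built, fell by 1.01 (SE 0.038; limma, adjusted p = 7.1e-11) in IRDC against control.

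**Figure D4:**
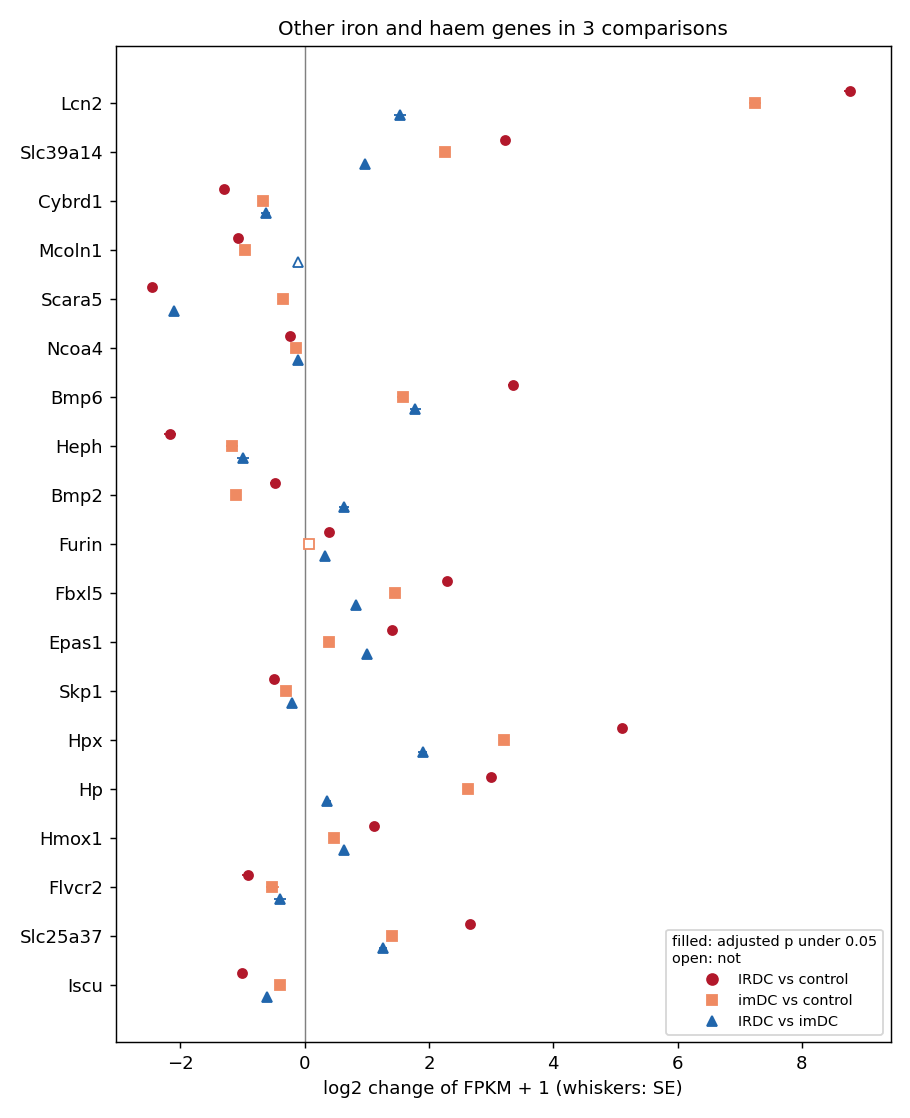
Change of log2(FPKM + 1) with SE whiskers for 19 iron and haem genes outside the main 10, in IRDC against control (circles), imDC against control (squares) and IRDC against imDC (triangles); filled symbols passed and open ones did not. Lcn2, Hpx, Bmp6, Slc39a14, Hp, Slc25a37 and Fbxl5 lie at 2.29 or above in IRDC against control, and Scara5 and Heph at -2.16 or below.

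For each tested gene the named gene with the most similar profile over the 11 libraries was looked up by Pearson's r of log2(FPKM + 1). The points share 3 groups that stand far apart, so high values are common, and no p is given. Aco1 was closest to Olfml2b (r = 0.999), but 1741 genes had r above 0.95 with it. Steap3 was closest to Pi16 (r = 0.999) and Cp to Tpd52 (r = 0.998). Tfrc, with 297 genes above 0.95, was closest to Fkbp1a (r = 0.997), which averaged 285 FPKM in IRDC, 220 in imDC and 211 in control. Slc11a2 was closest to Nid2 (r = 0.997), Steap4 to Maob (r = 0.997) and Ireb2 to Ppp1r18 (r = 0.984). Ftl1 was closest to Ccdc97 (r = 0.960).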

How the data were processed

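Messenger RNA of 11 rat BMSC libraries was captured on beads, made into libraries and sequenced on Illumina instruments, per the labels' protocols. The submitters' processing notes name FastQC 0.11.9, cutadapt 1.18, STAR 2.7.1a, SAMtools 1.3.1, HTSeq 0.13.5 and Cufflinks 0.17.3, with the genome build rn6. The authors deposited FPKM per gene. Strand and the treatment of reads matching several places are not given in the sources used here, so overlapping, antisense and near-identical genes cannot be separated.

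The table has 32883 gene rows, of which 388 have no name. Where 192 names stood on more than 1 row, the row with the highest mean was used for naming. The FPKM values were whole multiples of the value of 1 read for all 21487 genes above 0 (relative tolerance 1e-08), which gave read numbers and depth. A library at 0 allows up to 3 reads. This covers counting error only.

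Genes that reached 1 FPKM in 3 or more libraries were tested on log2(FPKM + 1) with limma 3.58.1 (R 4.3.3), lmFit and eBayes with a trend, in 1 fit of 11 libraries without covariates. Groups and replicate numbers come from the library titles. Other named genes are, per list, up to 4 that passed in IRDC against control with the largest change there; some of these are not reported here. The genes, lists and markers were chosen with earlier results of these data known. Alternatives were pseudocounts, filters, scaling, no trend, pairwise fits, voom on recovered reads, a replicate block and leaving out each library. The row LOC100360087 was added after the data were seen. Planned ratios with Fth1 or Slc40a1 were not made, because these are at 0 in some or all libraries. Promoter windows come from RefSeq (build GRCr8), and motif shares were counted over all windows of the same length.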

Additional observations from a re-analysis of the deposited data

Results flagged for a closer look

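Slc40a1 had 0.0323 FPKM in IRDC replicate 4, a single read, while the other 3 IRDC libraries were at 0. This library was picked out because its gap to the others made up the whole range of the group. Chance picks out about 1 in 20 groups of continuous values in this way, and 58 groups of 4 libraries were examined. That rate does not hold here, because with 3 libraries tied at 0 any value above 0 would have been picked out. A value of 1 read lies under the 3 reads that a library at 0 allows.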

How the results depend on the processing

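Values of the 8 tested genes and of the ratio of Aco1 to Ireb2 were recomputed, and Fth1 and Slc40a1 are not in these counts. Of these values, 496 kept their direction and their side of the threshold or, for the ratio, stayed within 1 SD. Among the rest, 6 turned direction, 8 newly passed in the same direction, 1 no longer passed and 1 ratio moved. Without a filter Slc40a1 was tested too, and 9 of the 10 genes passed in IRDC against control. The number of them that passed in imDC against control was 5 as reported, 3 with a filter of 5 FPKM, which leaves fewer genes tested, and 8 after TMM-like scaling. As reported, 63.2% of all genes were called in that comparison and 76.0% in IRDC against control. Shares of all genes under these alternatives are not given here, so the counts are no result about the 10 genes. In imDC against control, Ireb2 turned to 0.071 after TMM-like scaling, and passed there, and 0.046 after quantile normalization. In IRDC against imDC, Ftl1 turned to 0.010 after TMM-like scaling and 0.13 after quantile normalization. With 1 library left out, Ftl1 ranged from -0.19 (without IRDC replicate 3) to 0.044 (without imDC replicate 1), and was 0.037 without IRDC replicate 4. LOC100360087 turned to 0.031 after TMM-like scaling. Apart from the filter, the cause was not tested. Tfrc in imDC against control was near the threshold and passed with the replicate block (limma, adjusted p = 0.0452), with voom (adjusted p = 0.0346) and without IRDC replicate 3 (adjusted p = 0.0497).

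With each library left out in turn, 9244 to 9489 genes were called in IRDC against control, 7342 to 7890 in imDC against control and 6739 to 7340 in IRDC against imDC. Of the 10 genes, 8, 5 to 6 and 7 were called in these comparisons. Deviations of libraries with the same replicate number correlated weakly (-0.0482 to 0.069). In IRDC against control these correlations were 0.0366, 0.069, 0.0675 and 0.0224, above the -0.0626 to 0.0185 of differing numbers. In both comparisons with imDC they had mixed signs. Whether the numbers mark a pairing was not tested. With the replicate block 9508, 7733 and 7110 genes were called. Ftl1, Steap4 and Slc40a1 rest on few reads and are the least precise of the 10.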
